A study of Mus musculus with 16 samples.

Results

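Translation efficiency (TE), the number of ribosome footprints on a coding sequence relative to the amount of its mRNA, was examined gene by gene in wild-type (WT) Hepa1-6 cells, a mouse hepatoma line. The members are the genes with at least 10 counts in both Ribo-seq and both RNA-seq libraries of WT cells, each represented by the transcript with the largest count over the whole table, and 9634 of 22392 gene symbols met this rule. For each member, log2 TE was the log2 of footprint CPM (counts scaled to the same library total) over RNA CPM, so a log2 TE of 0 marks a gene that took the same share of the footprints as of the mRNA. The series holds 16 libraries, with 2 Ribo-seq and 2 RNA-seq replicates from WT cells and from each of 3 knockout lines, KO1, KO2 and KO3, which lack exon 5 of Eef1d. Eef1d encodes a subunit of the EEF1B complex, the exchange factor of the elongation factor EEF1A. Each knockout line is 1 clone, and no group received a treatment. Both libraries of a replicate came from the same lysate, which contained cycloheximide and chloramphenicol, and the study's methods speak of biological replicates without saying whether these were separate cultures. The p-values measure only the spread between these samples.

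In Ribo-seq, stretches of mRNA covered by a translating ribosome survive nuclease digestion and are sequenced as footprints, and RNA-seq of the same lysate gives the amount of each mRNA. Initiation is usually the slowest step of translation, and it is known to be influenced by the 5′ leader: upstream AUG codons and stable structure lower it, and proteins that bind the leader can block it. In liver cells, abundant mRNAs encode secreted plasma proteins made on the ER, metabolic enzymes and the translation machinery itself, and the mRNAs of the last group carry a 5′ terminal oligopyrimidine (TOP) tract through which mTOR controls them.

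The WT Ribo-seq libraries held 3583767 and 2370914 counts over 1 transcript per gene, and the WT RNA-seq libraries 10901031 and 11645854. Footprint counts therefore set the precision, and 11215 genes had at least 10 counts in both RNA-seq libraries against 9807 in both Ribo-seq libraries. Of 15 hepatocyte markers, 12 had at least 10 counts in both RNA-seq libraries, while Ttr, Apoa1 and Serpina1a did not. Markers of other liver cells were low: the summed RNA level of 5 macrophage markers was 9.82 and 11.2 CPM and that of 4 endothelial markers 2.29 and 1.46 CPM, with Adgre1, Cdh5, Kdr and Tek at 0, against 4119 and 4068 CPM for the hepatocyte list. The 4 biliary markers summed to 156 and 138 CPM, and the 5 fibroblast and stellate markers to 3.49 and 3.69 CPM.

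Most members lay close to the library average, with more members far below than far above it, although the single highest values lay farther out than the lowest. The median log2 TE was −0.15, with −0.17 in lysate 1 and −0.14 in lysate 2, and the interval from the 10th to the 90th percentile ran from −1.37 to 0.69, a 4.16-fold range. In edgeR's quasi-likelihood test of footprints against RNA (Benjamini-Hochberg adjusted p below 0.05 and at least a 2-fold difference), 406 members were called high (4.21% of those tested) and 1626 low (16.9%). Without the limit on size, 6562 members passed the adjusted p, 2523 of them above and 4039 below 0. The zero point depends on scaling: TMM factors moved the median to −0.01 and gave 571 high and 1364 low calls, and DESeq2 size factors moved it to 0.01 and gave 609 and 1325, so that high calls made up 20.0% of all calls with plain CPM, 29.5% with TMM and 31.5% with size factors. Differences below are therefore read against the median of all members. The lysates gave nearly the same order of genes, with a Pearson's r across 9634 genes of 0.941 and a Spearman's rho of 0.916, and log2 TE differed between lysates by a median of 0.16. Genes are not independent replicates, and this correlation is a description. Members just inside the count minimum, with a smallest count of 10 to 12, had a median log2 TE of −0.42 (375 genes), and genes just outside it, with a smallest count of 7 to 9, had −0.44 (423 genes).

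**Figure D1:**
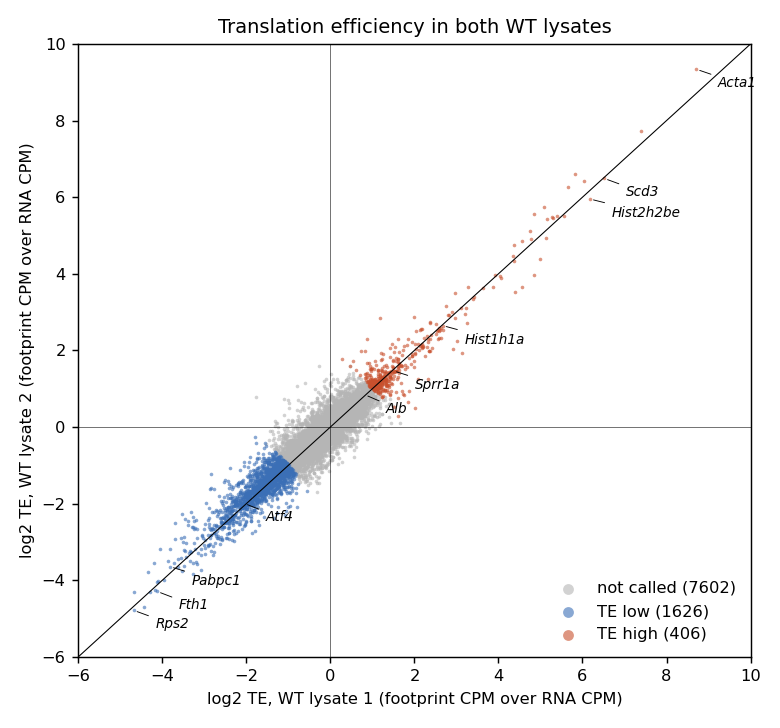
Log2 TE of the 9634 members in WT lysate 1 (x axis) and WT lysate 2 (y axis), 1 point per gene, with high calls in red, low calls in blue and the rest in grey. The diagonal marks equal values, and the points follow it over the whole range, from Rps2 at −4.68 and −4.79 to Acta1 at 8.71 and 9.34.

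The extremes of the distribution were rich in genes that share sequence with other places in the genome. For each of 9558 members with a coding sequence in the annotation used here, the share of its 30-base windows that also occur elsewhere was counted. At least 10% of windows were shared in 200 of 401 high members with a value (49.9%), in 198 of 1603 low members (12.4%) and in 1646 of all 9558 (17.2%). Of the 50 members with the highest TE, 42 reached this share, 20 carried symbols of predicted genes or gene copies, and 8 were histone genes, while 12 of the 50 with the lowest TE reached it. The study's read statistics refer to uniquely mapped reads, but how reads with several matches entered the deposited counts is not given in the sources used here. Rpl21, all of whose 30-base windows occur elsewhere, still had 619 and 450 footprint counts. Footprints are also much shorter than the RNA-seq reads, so the same gene can be ambiguous in one assay and not in the other, and the part of this in the TE of single genes was not tested.

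Single genes showed how far such values can go in either direction. Acta1, the actin of skeletal muscle, had the highest TE of all members, with 1927 and 1320 footprint counts and 14 and 10 RNA counts. Its 30-base windows were shared in only 6.23% of cases, but its 20-base windows in 22.9%. Scd3, a stearoyl-CoA desaturase gene next to its relatives on chromosome 19, had 1565 and 1025 footprints and 52 and 56 RNA counts, a log2 TE of 6.50, with 35.4% of windows shared. At the other end stood Rps2, a protein of the small ribosomal subunit, with 643 and 391 footprints and 50183 and 53058 RNA counts, a log2 TE of −4.73, and 83.7% of its windows occurred at 10 or more other places. Hnrnpa3 and Rpl21, with 89.5% and 85.8% of windows at 10 or more other places, had a log2 TE of −4.07 and −3.33.

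Gapdh, the glycolytic enzyme often used as a reference gene, did not reach the count minimum at all. It had 2 and 3 footprint counts against 40185 and 44043 RNA counts, and 95.6% of its windows occurred at 10 or more other places. Of 2551 genes with at least 1000 RNA counts in both libraries, 5 were not members: Gapdh, Hmgb1, Gm20721, 1810049J17Rik and Gm5148. The other members with few unique windows fell on both sides. Among the 59 members with at least 50% of windows at 10 or more other places, 14 were high and 18 low, and among the 88 with 10 to 50% at as many places, 38 were high and 5 low. Classes are therefore given below first for all their members, and their medians over members with under 10% of windows shared (7912 members, of which 2.54% were high and 17.8% low) follow.

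**Figure D2:**
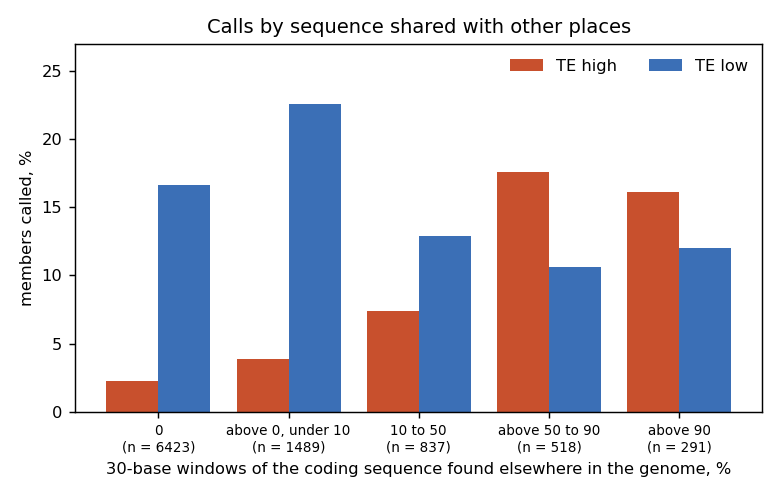
Percentage of members called high (red) and low (blue) in 5 classes of members (x axis) by the percentage of 30-base windows of the coding sequence found elsewhere in the genome, with the number of members under each class. High calls rose from 2.23% of 6423 members with no shared window to 17.6% of 518 members with above 50 to 90% shared, while low calls were 16.6% and 10.6% in the same classes.

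The genes with the highest TE were few, and several overlap other genes. The members named first are the 12 called high with the largest log2 TE among those past the limit in both lysates and with under 10% of windows shared, of 138 such members. They were Acta1, Gm20538, Alyref2, Hist1h1a, Gm20708, Snapc1l, Myl6b, Gm50364, Man1c1, Gm49711, Gm45213 and Tuba8, from 8.98 down to 2.32. In Gm20538, Gm20708, Snapc1l, Gm50364, Gm49711 and Gm45213, between 66.7% and 100% of coding bases lie in exons of another gene on the same strand, and 69.6% of those of Alyref2 lie opposite B930036N10Rik, so their reads cannot be assigned with certainty.

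The remaining 4 high members besides Acta1 do not overlap another gene's exons on their own strand. Hist1h1a, a linker histone, had 342 and 190 footprints and 163 and 149 RNA counts, and its log2 TE was 2.67 in lysate 1 and 2.65 in lysate 2 (2.68, SE 0.12, in the fit of both). Myl6b, an essential light chain of myosin, had 191 and 111 footprints and 94 and 91 RNA counts, with a log2 TE of 2.63 and 2.58 in the lysates. Tuba8, an α-tubulin, had 167 and 116 footprints and 116 and 99 RNA counts, with 2.13 and 2.53 in the lysates, and 21.6% of its coding bases lie opposite Gm15856. The lysates were farther apart for Man1c1, a Golgi mannosidase that trims N-glycans, at 1.98 and 2.86, from 171 and 145 footprints and 132 and 98 RNA counts. All 4 of these genes were weakly expressed, with fewer than 200 RNA counts in each library. Of their 20-base windows, 14.8% were shared in Tuba8, 10.8% in Myl6b, 4.38% in Hist1h1a and 1.37% in Man1c1. The part of shared sequence in their TE was not tested.

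The lowest members included abundant mRNAs, so that their low TE rested on many RNA counts. The 12 lowest, chosen by the same rule from 1192 members, were Tesk1, Dst, Rnf10, 9930021J03Rik, Gas2l1, 2610507B11Rik, Smo, Csnk1g2, Mllt6, Phtf1, Ccm2 and Tcf20, from −4.52 up to −3.55. Dst, which encodes the giant cytoskeletal linker dystonin of 7718 codons, had 107 and 77 footprints and 6364 and 7494 RNA counts, and its log2 TE was −4.29 in lysate 1 and −4.31 in lysate 2. The E3 ubiquitin ligase gene Rnf10 had 122 and 79 footprints and 6740 and 7360 RNA counts, a log2 TE of −4.21, and its leader holds 4 AUG codons. Tesk1, a testis-associated protein kinase, had 16 and 14 footprints and 1248 and 1364 RNA counts, with −4.68 and −4.31 in the lysates. Its leader holds 14 AUG codons, and 46.8% of its coding bases lie opposite Cd72. Smo, the signal transducer of the Hedgehog pathway, had 44 and 46 footprints and 2477 and 2654 RNA counts (log2 TE −3.91), and the transcriptional cofactor gene Tcf20 had 220 and 154 footprints and 8329 and 8259 RNA counts (−3.55). Among the 12 genes the lysates were farthest apart for Phtf1, at −4.05 and −3.18, from only 10 and 12 footprints. Smo had −4.21 and −3.55.

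Members with many counts and under 10% of windows shared were grouped after their values were seen, to show which abundant mRNAs were called. The 42 high members with at least 500 footprints in both libraries had a median of 283 codons, and 13 of them had an AUG in the leader. They included Hist1h1b at 1.84, Sprr1a at 1.48, the connective tissue growth factor gene Ccn2 at 1.45, the tetraspanin gene Cd81 at 1.39, the S100 proteins S100a10 and S100a6 at 1.38 each, and the secreted proteins Igfbp1 at 1.38, Igfbp3 at 1.25, Dcn at 1.25, Spp1 at 1.17 and Sparc at 1.02. Both lysates were above 0 for each of these genes. The 47 low members with at least 4000 RNA counts in both libraries had a median of 1843 codons, and 32 of the 42 with an annotated leader had an AUG in it. Over the 7912 members with under 10% of windows shared the median was 501 codons, and 48.8% of the 7741 with a leader had an AUG in it. RNA counts rise with coding length, so the minimum of 4000 favours long genes in itself, while high members were cut on footprints. No comparison with members under the same count minimum was made. Overlapping entries are both counted in the low group, Atn1 with Gm45234 at the same counts and Srcap with Gm42715. The low group included the kinase gene Mast2 at −3.42, the kinesin gene Kif1c at −3.36, the cytolinker gene Plec at −2.77, Jak2, a kinase of cytokine receptors, at −2.75, the chromatin factor genes Kmt2d at −2.71 and Srcap at −2.54, Bag1 at −2.33, Drosha, the nuclease that starts microRNA processing, at −1.95, and Ahnak at −1.30.

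By footprints per codon, which compares genes on the same length scale, the cells' ribosomes were most dense on a cornified-envelope protein, histones and actin. Sprr1a, a small proline-rich protein, had the highest density, 51135 footprint CPM per 1000 codons, against 18329 RNA CPM per 1000 codons. Its 25315 and 15986 footprints and 27394 and 28369 RNA counts gave a log2 TE of 1.49 and 1.47 in the lysates. Actb, the cytoplasmic β-actin, had 34727 footprint CPM and 20370 RNA CPM per 1000 codons, from 45338 and 30275 footprints and 80561 and 87581 RNA counts, with a log2 TE of 0.77. The other 8 of the 10 densest genes were copies of histones H3 and H4, from Hist1h3h at 36012 to Hist1h3f at 30234 footprint CPM per 1000 codons, and reads of these copies cannot be told apart with certainty.

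Gene lists put histones, the cytoskeleton and metabolic and quality-control complexes above the median of all members, and ribosomal proteins, zinc-finger proteins and chromatin regulators below it. Of 42 lists, 33 had a median above −0.15 and 9 below. Linker histones, which bind the DNA between nucleosomes, had the highest median, 1.84, and all 5 members were high. Core histones followed with a median of 1.31 over 60 members, of which 40 were high (4.21% in the background) and none was low. Their range was wide, from Hist1h2bg at −0.26 to Hist2h2be at 6.06. The core histone genes took 10.7% and 9.87% of footprint counts in the WT libraries against 4.11% and 3.95% of RNA counts, though a read may have been counted for several copies. Only 2 core histone genes, Hist4h4 at 1.25 and Hist2h2bb at 0.77, had under 10% of windows shared, and of the linker histones Hist1h1a and Hist1h1b, whose log2 TE was 1.86 and 1.80 in the lysates from 4063 and 2380 footprints and 3393 and 3354 RNA counts. Replication-dependent histone mRNAs end in a stem-loop and lack a poly(A) tail. The sample descriptions name polyA RNA while the protocol describes depletion of ribosomal RNA, and the part of the RNA selection in the TE of histones was not tested.

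**Figure D3:**
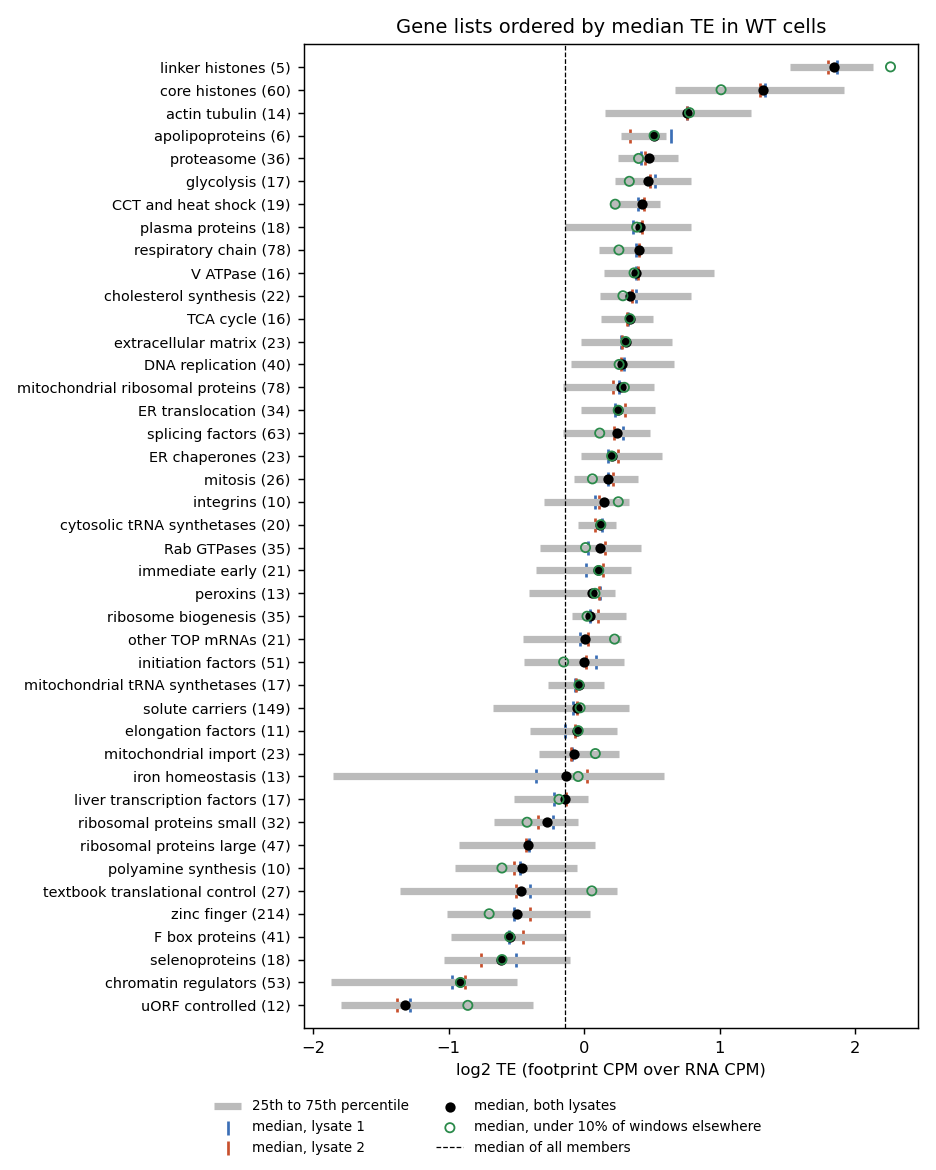
Median log2 TE (x axis) of 42 gene lists in WT cells, ordered from high to low, with the number of members in parentheses. Grey bars span the 25th to 75th percentile over members, black points give the median, blue and red ticks the medians in lysates 1 and 2, open green circles the median over members with under 10% of windows shared, and the dashed line the median of all members at −0.15. Linker and core histones stand at the top and chromatin regulators and genes with upstream open reading frames (uORFs) at the bottom.

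Several large complexes and pathways of metabolism were shifted upward as a group, with most of their members short of the 2-fold limit. Where any member was high, the share ran from 5.56% of the proteasome to 35.7% of actins and tubulins, against 4.21% of all members. The proteasome, which degrades ubiquitinated proteins, had a median of 0.48 over 36 members, 34 of them above the median of all members and 2, Psma5 and Psmb3, high, with 91.2% and 83.9% of windows shared. Its members ran from Psmd8, a lid subunit, at −0.42 to Psmb3, a β-ring subunit, at 1.22, and the median over its 23 members with under 10% of windows shared was 0.40. Subunits of the respiratory chain had a median of 0.40 over 78 members, with 7 high and none low, from Ndufb9 of complex I at −0.56 to Sdhc, a membrane anchor of complex II, at 1.27. The high members also included the complex II anchor Sdhd at 1.12, the complex I subunit Ndufc2 at 1.22 and the ATP synthase subunit Atp5g3 at 1.14. Sdhc had 527 and 387 footprints and 704 and 739 RNA counts. Over the 40 respiratory-chain members with under 10% of windows shared the median was 0.26. The list holds short genes, with a median of 137.5 codons. Among all 964 members with 38 to 170 codons, the median was 0.32, with 15.9% high and 5.71% low. The part of length in the value of the respiratory-chain list was not tested. Glycolysis stood at 0.47 over 17 members, with Pgam1 at 1.04, all of its windows shared, and Aldoc at 1.25, none shared, high and Pfkl the lowest at −0.18, the tricarboxylic acid cycle at 0.34 over 16 members, with none high or low, and cholesterol synthesis at 0.34 over 22 members, with Idi1 at 1.27 (87.5% of windows shared) and Msmo1 at 1.05 (none shared) high. The chaperonin CCT and heat-shock proteins had a median of 0.42 over 19 members, and none of them was high or low. Vacuolar ATPase subunits, which acidify lysosomes, had 0.38 over 16 members, with Atp6v0c, Atp6v1e1, Atp6ap1 and Atp6ap2 high, from 1.13 down to 1.02, and Atp6v0a2 low at −1.07. Of the windows of Atp6v0c 92.7% and of Atp6ap2 19.1% were shared. Actins and tubulins had 0.76 over 14 members, with Acta1, Tubb2b, Tuba8, Tubb2a and Actg1 high, and between 71.9% and 100% of the windows of Tubb2a, Tubb2b and Actg1 were shared.

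Secreted liver proteins were also above the median of all members, though only a part of the list was expressed. Of 49 plasma protein genes in the table, 18 were members, with a median of 0.41, 2 high and none low. Igfbp1, a binding protein of insulin-like growth factors, had 1630 and 958 footprints and 1845 and 1894 RNA counts, and its log2 TE was 1.43 and 1.31 in the lysates. Alb, serum albumin, had 4974 and 3192 footprints and 8618 and 8724 RNA counts and a log2 TE of 0.83, and its fetal relative Afp one of 0.92, both above the average in each lysate and short of the 2-fold limit. Agt, the precursor of angiotensin, was the lowest of the list at −0.49 from 24 and 15 footprints, and it did not pass the test (adjusted p = 0.0968 in edgeR's quasi-likelihood test). The 6 apolipoproteins had a median of 0.52 and no call, and 23 genes of the extracellular matrix 0.30, from the proteoglycan Agrn at −0.77 to Ccn2 at 1.45, with Ccn2, Spp1 and Sparc high.

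The machinery that brings such proteins into the ER was slightly above the median as well. ER translocation components had a median of 0.25 over 34 members, with Sec61g of the translocon at 1.05 and Ssr3 at 1.01 high and Srp9 of the signal recognition particle low at −1.33. Of their windows, 88.5%, none and 100% were shared. ER chaperones had 0.20 over 23 members, with 1 high and 1 low. The high chaperone was Hspa5, the Hsp70 of the ER lumen, with 3961 and 2595 footprints and 5708 and 5876 RNA counts (log2 TE 1.10), and the low one Edem1, which targets misfolded glycoproteins for degradation, at −1.39. DNA replication factors stood at 0.28 over 40 members, with 1 high and none low. Mitochondrial ribosomal proteins had 0.27 over 78 members, with Mrpl33 high at 1.70 and Mrps24 and Mrpl30 low at −1.23 and −1.22. Their median length was 195 codons, and all 973 members with 171 to 245 codons had a median of 0.14. In Mrpl33, 75.9% of coding bases lie in exons of Gm43809 on the same strand, and 43.6% of the windows of Mrpl30 were shared. Splicing factors had 0.24 over 63, with the core small nuclear ribonucleoprotein subunit Snrpd3 at 1.45, Sf3b6, Srsf3 (96.6% of windows shared) and Snrpb2 (past the 10% limit too) high and Hnrnpa3, Hnrnpul1 and Prpf40b low. Mitotic genes had 0.17 over 26, where Cdk1, the kinase that drives entry into mitosis, was high at 1.03.

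The cytosolic translation machinery was split. Aminoacyl-tRNA synthetases had a median of 0.12 over 20 members and no call. Initiation factors had a median near 0 over 51 members, with 1 high and 6 low (11.8%, against 16.9% of all members). Elongation and termination factors had −0.06 over 11 members with no call. Eef1d, the gene altered in the knockout lines, had a log2 TE of 0.52 in WT cells, while its partners Eef1b2 and Eef1g had −0.67 and −0.35 and Eef1a1 −0.45. The Eef1d transcript kept here has 1656 coding bases, more than the study's short isoforms, and its TE was not separated by isoform. Eef2, the translocase of the ribosome, had 11892 and 7646 footprints and 57400 and 61785 RNA counts (−0.69). The low members of the initiation list included the eIF2α kinases Eif2ak3 and Eif2ak4 at −1.26 and −1.16 and Eif4g2, a relative of the scaffold eIF4G, with 1525 and 993 footprints and 16123 and 17225 RNA counts (−1.81). The high one was Eif3j2 at 2.94, with 73.9% of windows shared. Of the windows of Eef1d, Eef1b2, Eef1a1 and Eef1g, 18.6%, 24.7%, 88.6% and 95.1% were shared.

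The medians of both ribosomal protein lists lay below that of all members, and their shares of low members were near the 16.9% of all members. Those of the small subunit had a median of −0.28 over 32 members, with 7 low (21.9%), and those of the large subunit −0.42 over 47 members, with 11 low (23.4%), and none of either list was high. The large-subunit proteins took 3.99% and 3.92% of footprint counts against 5.80% and 5.79% of RNA counts. Nearly all have processed copies in the genome, and only 1 member of both lists together had under 10% of windows shared. Among the low ones, all with at least 10% of windows shared, were Rps12 at −3.62, Rpl29 at −3.18 and Rplp0, the base of the ribosomal stalk, at −2.65. The other TOP mRNAs had a median near 0 over 21 members, with Pabpc1, Eif4b and Tpt1 low (14.3%). They ranged from Pabpc1 at −3.74 to Btf3 at 0.69. Pabpc1, the cytoplasmic poly(A)-binding protein, had 2069 and 1532 footprints and 88723 and 94346 RNA counts, with −3.82 and −3.65 in the lysates, and 51.4% of its windows were shared. Tpt1, another TOP mRNA, had 2586 and 1553 footprints and 16558 and 17433 RNA counts, a log2 TE of −1.13, with all of its windows shared.

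Chromatin regulators, zinc-finger proteins and F-box proteins were large classes with a low median TE. Chromatin regulators, mostly long genes with a median of 1402 codons, had a median log2 TE of −0.92 over 53 members, 23 of them low (16.9% in the background) and none high, and only 4 lay above the median of all members. The median was −0.91 over the 46 with under 10% of windows shared. Among all 963 members with 1173 to 8800 codons, the median was −0.90, with 45.0% low and 0.415% high. The part of length in the value of this list was not tested. Kmt2d, a histone H3 lysine 4 methyltransferase, had 561 and 376 footprints and 11112 and 12138 RNA counts, with −2.70 and −2.72 in the lysates. Kmt2e was lower still, at −2.95, and Smarcb1, a core subunit of the SWI/SNF remodeller, was the highest of the list at 0.55. Zinc-finger genes with Zfp symbols had a median of −0.50 over 214 members, and −0.70 over the 148 with under 10% of windows shared. Of the 214, 54 were low (25.2%, against 16.9% of all members). Zfp953, Zfp40 and Zfp974 were high (1.40%, against 4.21%). They ran from Zfp236 at −3.05 to Zfp953 at 1.78. Zfp40, with under 10% of windows shared, was at 1.69, and 393 such genes were listed in all. F-box proteins, which select substrates for ubiquitination, had −0.55 over 41 members, with 10 low (24.4%, against 16.9% of all members). The lowest was Fbxw2 at −2.64 from 27 and 15 footprints and 440 and 557 RNA counts.

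Selenoproteins, whose mRNAs recode a UGA stop codon as selenocysteine, had a median of −0.61 over 18 members, with 5 low and 1 high. The low share was 27.8%, against 16.9% of all members. Selenop, the secreted carrier of selenium made by the liver, had 604 and 427 footprints and 4779 and 5081 RNA counts (log2 TE −1.33). Sephs2, which makes the selenium donor, was the lowest at −1.73, the glutathione peroxidase Gpx4 was at −1.19 with 85.4% of windows shared, Selenom at −1.10 and Selenow at −1.05, and Selenoi was the high one at 1.29. Gpx1, also a glutathione peroxidase, had −0.89. Genes of polyamine synthesis had −0.46 over 10 members, with 2 low (20.0%), Odc1, the first enzyme of the pathway, at −1.71 and Amd1 at −1.52. Amd2, a near copy of Amd1, was high at 1.26, and reads of the pair cannot be told apart with certainty.

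Transcription factors and membrane transporters were mixed, with shares of low members near or below the 16.9% of all members. These were 17.6% of liver transcription factors, 14.3% of immediate-early genes and 12.1% of solute carriers. Of the solute carriers 3.36% were high, against 4.21% of all members. Liver transcription factors had a median of −0.14 over 17 members, with Onecut1 at −1.86, Onecut2 at −1.71 and Rxra, the partner of many nuclear receptors, at −1.62 low and none high. Immediate-early genes had 0.10 over 21 members, with Nr4a1 at −1.87, Jund at −1.73 and Klf4 at −1.45 low. Solute carriers had −0.05 over 149 members, with 18 low and 5 high, namely the glucose transporter Slc2a1 at 1.14, Slc1a4 at 1.13, Slc17a6 at 1.08, the monocarboxylate transporter Slc16a1 at 1.07 and Slc35d1 at 1.02.

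Over members with under 10% of windows shared, whose own median was −0.20, some class medians were lower and others changed little. Of the high classes, CCT and heat-shock proteins had 0.23 (9 members), glycolysis 0.33 (9), cholesterol synthesis 0.28 (17), splicing factors 0.11 (36) and mitotic genes 0.06 (17). Actins and tubulins had 0.78 (5), vacuolar ATPase subunits 0.37 (12), plasma proteins 0.39 (17), the tricarboxylic acid cycle 0.34 (12), mitochondrial ribosomal proteins 0.30 (54), DNA replication factors 0.26 (33), ER translocation components 0.25 (25) and ER chaperones 0.20 (19). None of these class medians fell below that of the members with under 10% of windows shared. Initiation factors stood at −0.15 (31) with no high call, selenoproteins at −0.61 (15), F-box proteins at −0.55 (39), liver transcription factors at −0.19 (16), solute carriers at −0.03 (138) and iron homeostasis at −0.05 (9).

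Over all members, genes known to be controlled through uORFs showed the lowest median of the 42 lists, while over members with under 10% of windows shared chromatin regulators lay at −0.91 and this list at −0.86. The uORF list had a median of −1.32 over 12 members, of which 7 were low (58.3%, against 16.9% of all members) and none high. Of the 10 with under 10% of windows shared, 5 were low. Atf4, the transcription factor of the integrated stress response, had 390 and 244 footprints and 4928 and 4774 RNA counts, and its log2 TE was −2.05 and −1.99 in the lysates. Ppp1r15a, which recruits a phosphatase to eIF2α, had 43 and 26 footprints and 634 and 576 RNA counts (−2.21), Atf5 had 100 and 62 footprints and 1034 and 990 RNA counts (−1.72), and Ppp1r15b was at −1.13. Slc35a4 was the lowest at −3.53, with 60.3% of windows shared, and Cebpb, whose uORF sets its choice of start site, the highest at 0.03. Ddit3, which encodes CHOP, was not a member, with 10 and 8 footprints against 298 and 243 RNA counts.

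The leader of Atf4 is shown because its AUG codons are the known example of such control. Its transcript holds 3 AUG codons before the annotated start, on the plus strand of GRCm38, here with the AUG in capitals as ATG. The first opens a frame of 36 codons, the second one of 3 codons and the third one of 59 codons that runs past the annotated start, and the window of the third ends at an exon boundary.
Atf4 first leader AUG, chr15:80255294-80255311: ttttctctcATGgggcct
Atf4 second leader AUG, chr15:80255573-80255590: gcggccaccATGgcgtat
Atf4 AUG next to the exon boundary, chr15:80255672-80255685: gcctaagccATGgc
Atf4 annotated start, chr15:80256290-80256307: ccccacaacATGaccgag

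Genes of iron homeostasis had a median of −0.14 over 13 members, near that of all members, and a wide spread, from Ftl1 at −4.56 to Tfrc at 1.17. Of these, 4 were low (30.8%, against 16.9% of all members) and 1 high. Iron-responsive elements (IREs) are hairpins to which the iron regulatory proteins bind. In a leader they are known to hold back translation when iron is low, and in a 3′ untranslated region, as in Tfrc, to protect the mRNA. The ferritin chains Ftl1 and Fth1 had a log2 TE of −4.56 and −4.20, from 164 and 96 footprints and 10873 and 12314 RNA counts for Ftl1 and from 218 and 134 footprints and 11562 and 12909 RNA counts for Fth1. Of their windows, 87.8% and 25.3% were shared. Slc40a1, the iron exporter ferroportin, has no shared window and had 26 and 19 footprints against 797 and 1052 RNA counts, with −3.33 and −3.49 in the lysates (−3.43, SE 0.18, adjusted p = 1.8e-16 in edgeR's quasi-likelihood test). The transferrin receptor Tfrc lay on the other side, with 2106 and 1509 footprints and 2823 and 3288 RNA counts (1.17). Epas1, with a known IRE, had −1.86.

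The leaders of 9335 members were searched on the sense strand for a hairpin with a bulged C, 5 bases, the 6-base loop CAGTGN and 5 bases that pair with the first 5, G–T pairs allowed. Such a site was found in 13 leaders (0.139%), of which 4 were low, namely those of Ftl1, Fth1, Slc40a1 and Vti1b, and none was high. Among all members 16.9% were low and 4.21% high, so few calls of either kind would be found in any 13 members. The other 9 members lay between −0.63 and 0.73. Sites of 3 genes known to carry a leader IRE are given 5′ to 3′ in GRCm38, with the loop in capitals.
Fth1, chr19:9982733-9982759, plus strand: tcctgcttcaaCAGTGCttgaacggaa
Ftl1, chr7:45459780-45459806, minus strand: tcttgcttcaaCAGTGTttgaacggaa
Slc40a1, chr1:45925466-45925492, minus strand: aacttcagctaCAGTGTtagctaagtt
The match in these 3 genes is a description, and the binding of a protein was not measured.

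Across members, log2 TE declined with the length of the coding sequence, with the number of AUG codons in the leader and with leader GC content. None of these was a criterion for members. The count minimum can still bear on length, since a short gene with low TE yields few footprints. Of the 1581 genes that passed it in RNA-seq only, 672 (42.5%) were low. The trends were not examined with these genes included. Among the 7912 members with under 10% of windows shared, the median fell from 0.24 in the first of 10 equal groups ordered by coding length, 52 to 200 codons, to −0.94 in the last, 1244 to 8800 codons. Low calls made up 5.49% of the first group and 46.6% of the last, and high calls 8.35% and 0.25%. Spearman's rho across these genes was −0.43, with −0.42 in each lysate, and over all 9634 members it was −0.42. Counts exclude 5 codons at either end of a reading frame.

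Leader AUGs were compared in the 7741 of these members with an annotated leader, and leader GC in the 7554 whose leader has at least 20 bases. The 3965 members with no AUG in the leader had a median of −0.01, the 1799 with 1 AUG −0.29, the 759 with 2 AUGs −0.49 and the 434 with 5 or more −0.66, and low calls rose from 8.90% with no AUG to 38.0% with 5 or more. The difference was present at each length: with members split into 3 equal groups by codons, the median was 0.21 without and −0.02 with a leader AUG in the shortest group, 0.01 and −0.33 in the middle group, and −0.36 and −0.80 in the longest group. In 5 equal groups ordered by leader GC, the median was −0.06, −0.02, −0.08, −0.22 and −0.61, and it was lower mainly in the last group, from 74.2% to 94.7% GC. The 521 members of that group with a leader AUG had a median of −1.13, none was high, and 55.7% were low. The 486 members of the lowest GC group without a leader AUG had 0.26.

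Other features were related to TE less closely. Spearman's rho with leader length was −0.18, with medians from −0.04 in the group with the shortest leaders to −0.46 in that with the longest, of 5 equal groups. The base at the third position before the start codon, part of the Kozak context, gave a median of −0.12 for A, −0.21 for G, −0.28 for T and −0.42 for C, and the base directly after the AUG −0.18 for G and −0.21 for others. The GC content at codon position 3 was hardly related, with a rho of −0.04. Length, leader AUGs and GC go together with gene class, and their separate parts in TE were not tested.

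**Figure D4:**
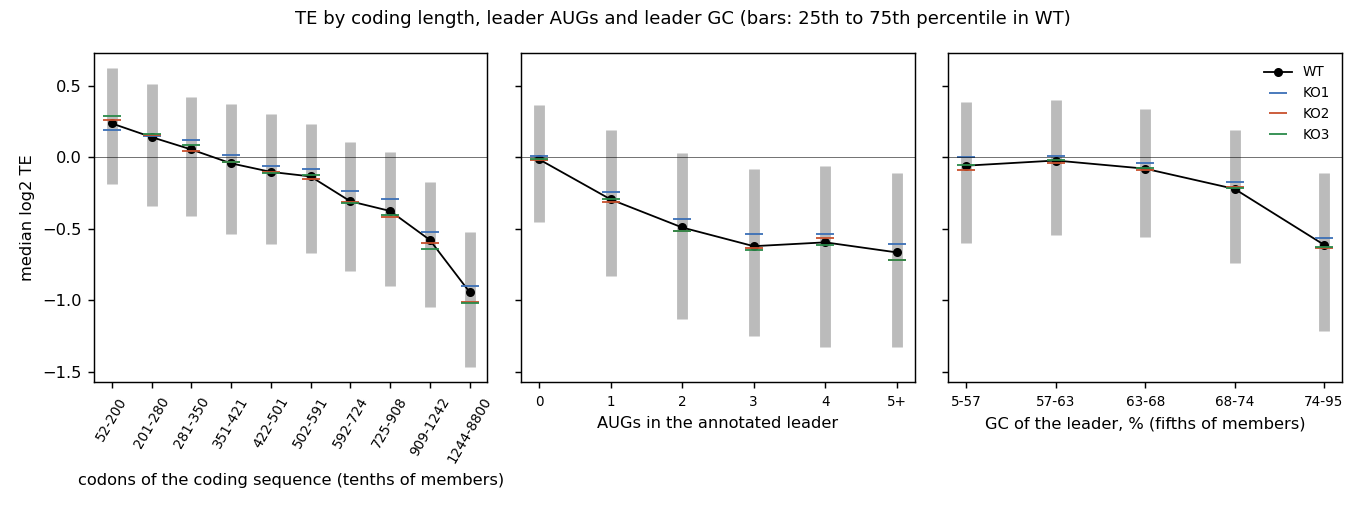
Median log2 TE (y axis) of members with under 10% of windows shared, in 10 equal groups by codons of the coding sequence (left), by the number of AUG codons in the annotated leader (middle) and in 5 equal groups by leader GC (right). Black points give WT, grey bars the 25th to 75th percentile of WT members, and coloured ticks the median of the same members in KO1, KO2 and KO3. The WT median falls from 0.24 to −0.94 with length, from −0.01 to −0.66 with leader AUGs and from −0.06 to −0.61 with leader GC, and the clones follow it closely.

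The 3 knockout clones, sequenced as separate libraries, gave a closely related landscape. Of their own members, which numbered 8538 for KO1, 9880 for KO2 and 9809 for KO3, 4.9%, 4.18% and 4.48% were high and 15.6%, 17.8% and 17.8% low. Of the WT-high genes that were members in a clone, KO1 called 278 of 331 high, KO2 307 of 377 and KO3 302 of 375, and of the WT-low genes 1167 of 1348, 1426 of 1598 and 1415 of 1590 were low, with no call of the opposite sign. Of the genes measured in all 3 clones, 233 of 319 WT-high genes (73.0%) and 1055 of 1331 WT-low genes (79.3%) were called the same way in each clone. In the other direction, 69.7% of the KO1-high genes that were WT members were also high in WT, and 79.5% and 74.2% for KO2 and KO3. Pearson's r between WT and clone log2 TE was 0.970 across 8458 genes for KO1, 0.969 across 9464 for KO2 and 0.967 across 9384 for KO3. Of the 42 list medians, 37 lay on the same side of the median of all members in WT and in all 3 clones. Atf4 was at −2.30, −2.07 and −1.68 in KO1, KO2 and KO3, Kmt2d at −2.58, −2.83 and −2.88, Alb at 1.08, 0.69 and 0.68 and Tfrc at 1.28, 1.13 and 1.12. In a test of the difference between each clone and WT (edgeR's quasi-likelihood test, adjusted p below 0.05), TE differed for 8 genes in KO1 (0.0946%), 1 in KO2, Rps12 with a difference of 0.66 (0.0106%), and 12 in KO3 (0.128%).

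**Figure D5:**
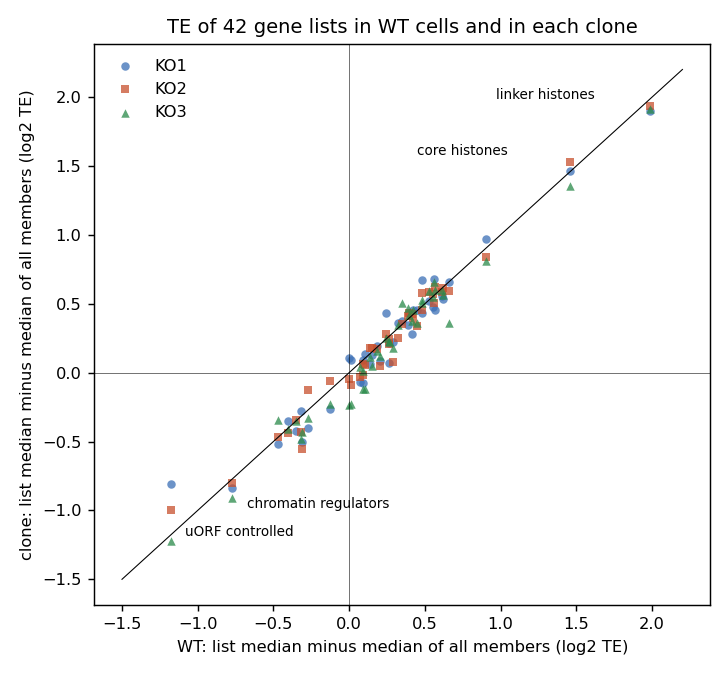
Median log2 TE of 42 gene lists minus the median of all members, in WT cells (x axis) and in KO1 (blue), KO2 (red) and KO3 (green) (y axis), 1 point per list and clone. The diagonal marks equal values. Linker histones, at 1.98 in WT, and core histones, at 1.46, stand at the upper end and chromatin regulators, at −0.77, and genes with uORFs, at −1.18, at the lower end in each clone.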

How the data were processed

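The authors trimmed reads with fastp 0.21.0, removed noncoding RNA reads, aligned the rest to mm10 with STAR 2.7.0a and assigned them to GENCODE transcripts, and they deposited raw counts per transcript for 16 libraries, with A-site offsets for footprints and 5 codons excluded at either end of a reading frame. The WT columns and those of the 3 clones were used here. 1 transcript per gene symbol was kept, counts were scaled by library totals, and footprints were tested against RNA with edgeR 4.0.16 in R 4.3.3 (quasi-likelihood test, no replicate block, count minimum 10, adjusted p below 0.05, log2 limit 1). Tests on simulated counts recovered 50 of 50 genes at a log2 TE of 2 and called none of 9281 unchanged genes. Of 50 genes simulated at −1.5, 43 passed the count minimum, and 41 of these were called low.

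The members and the 42 gene lists were chosen with earlier results of these data known. Named genes were the 12 highest and 12 lowest, the extremes of each list, the textbook cases and the 10 densest genes, and other examples were chosen after their values were seen. Coding sequences, leaders and shared windows came from GRCm38 with GENCODE vM21 models (Python 3.11.15, pandas 2.3.3, numpy 2.4.6, numba 0.67.0), and windows of 20 bases were an alternative added after seeing the data. DESeq2 1.42.0 was an alternative. WT replicates differed beyond sampling noise (chi-square over degrees of freedom 1.50 for Ribo-seq and 2.50 for RNA-seq). Replicate differences of the paired assays, which share a lysate, correlated with r = 0.0851 over 9634 genes and 0.336 over the 2273 genes with at least 200 counts.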

Additional observations from a re-analysis of the deposited data

Results flagged for a closer look

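For 7 genes named here or called high or low within a list, the TE of WT cells differed from that of 1 clone in edgeR's quasi-likelihood test of the difference (Benjamini-Hochberg adjusted p below 0.05), while the differences of the other clones from WT did not pass. The clones share the WT libraries, and the cause was not tested. For Hist1h1a, log2 TE was higher in KO3 than in WT by 1.26 (adjusted p = 0.000616), and the differences from WT were −0.50 in KO1 and −0.88 in KO2. For Tuba8, the difference from WT was −0.92 in KO3 (adjusted p = 0.0213), 0.60 in KO1 and −0.34 in KO2. For Fn1, fibronectin, it was 0.65 in KO1 (adjusted p = 6e-06), −0.18 in KO2 and −0.20 in KO3. For Actg1, the cytoplasmic γ-actin, the difference was 0.50 in KO1, and for the ribosomal proteins it was 0.66 in KO2 for Rps12, 0.35 in KO3 for Rpl12 and −0.42 in KO1 for Rps20.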

How the results depend on the processing

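Groups of 2 replicates, footprint counts that are lower than RNA counts, and reads that match several places limit these values. No count, spread or named gene changed direction under the alternatives run, while some list medians did. The number of high genes was 784 with no filter on low counts, 214 when the 2-fold limit was part of the test (glmTreat), 201 among members with under 10% of 30-base windows shared and 164 with 20-base windows, against 406. The number of low genes was 809 of 6272 tested with at least 50 counts in all 4 libraries, 1071 of 9634 with glmTreat, 2291 of 15253 with no filter and 2298 of 11215 with a filter on RNA-seq counts only, against 1626 of 9634. The spread of log2 TE, 10th to 90th percentile, was 3.68 with no filter, 1.88 with at least 50 counts, 2.27 with a filter on RNA-seq counts only, 1.99 without shared 30-base windows and 2.00 without shared 20-base windows, against 2.06.

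The filter bears on low genes directly: 1581 genes passed it in RNA-seq only, and 672 of these (42.5%) were low and 19 high. The median log2 TE of core_histones minus that of all genes was 1.56 with no filter, 1.36 with at least 50 counts, 1.54 with the RNA-seq filter and 1.21 without shared 30-base windows, against 1.46. The median log2 TE of chromatin_regulators minus that of all genes was −0.61 with no filter, −0.68 with the RNA-seq filter, −0.71 and −0.70 without shared 30-base and 20-base windows, against −0.77.

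Leaving out 1 library at a time gave 401 to 440 high and 1606 to 1739 low genes, a spread of 2.06 to 2.11, a core histone difference of 1.41 to 1.51 and a chromatin regulator difference of −0.82 to −0.71. The remaining library of that assay was then assumed to vary like the others. The fit with a replicate block, which pairs both assays of a lysate, gave 406 high and 1626 low genes, of which 398 and 1614 were also called without it, and it changed no other call named here. Of 42 lists, 33 kept their side of the median of all genes under every alternative, and 9 did not: solute carriers, integrins, mitochondrial import, mitochondrial tRNA synthetases, elongation factors, initiation factors, liver transcription factors, iron homeostasis and textbook cases of translational control. Relative to all genes, the median of the textbook cases ranged from −0.40 to 0.26, that of initiation factors from −0.14 to 0.24 and that of iron homeostasis from −0.14 to 0.21. Values for named genes kept their call in 2280 comparisons, gained one in 12 and lost one in 20. Thinning to the smallest library gave 327 and 1563 calls, and DESeq2 390 and 1618.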
